A study of Mus musculus with 17 samples.

Results

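Chemokines are small secreted proteins that guide leukocytes into tissues, and their receptors are G protein-coupled receptors on the surface of the migrating cells. The genes of both families were taken from the whole-kidney expression table by symbol (Ccl, Cxcl, Cx3cl and Xcl genes for ligands, Ccr, Cxcr, Cx3cr, Xcr and Ackr genes for receptors), with no filter on expression. This gave 54 of 22558 genes, of which 34 were ligands and 20 were receptors. Ccl27a has 2 entries, a gene on chromosome 4 and a copy on an unplaced scaffold.

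The 4 chemokine classes (CC, CXC, CX3C and XC) are named after the spacing of the first cysteines of the protein, and most inflammatory ligands bind several receptors. In the kidney, tubular cells, endothelium and resident macrophages can all release chemokines, and the ligands induced by interferon-gamma (CXCL9, CXCL10 and CXCL11) attract T cells and NK cells through CXCR3. Others are homeostatic: CXCL12 retains CXCR4-bearing cells, CX3CL1 (fractalkine) is anchored on the membrane of endothelial and epithelial cells, and the atypical receptors (ACKR) bind chemokines without classical G protein signalling and remove them.

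Kidneys were compared from 3 groups of male mice, with 1 RNA library per mouse. Ctrl mice were C57BL/6 (n = 5) and Case mice were db/db, of the strain BKS.Cg-Dock7m +/+ Leprdb/J (n = 6), which lack a functional long leptin receptor and become obese and diabetic. Dapa mice (n = 6) were db/db mice that received dapagliflozin, a drug that blocks renal glucose reuptake through SGLT2. Dosing was 1 mg/kg daily, began at the age of 8 weeks and lasted 6 weeks. Ctrl and Case mice were given saline instead. Ctrl mice were of another strain, so leptin receptor genotype and strain background cannot be told apart in any comparison with Ctrl. The db allele changes the splicing of Lepr, so the total level of Lepr (0.464 to 1.93 FPKM in Ctrl, 0.659 to 5.40 in Case and 0.417 to 4.85 in Dapa) does not check the genotype.

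Each library had between 13039535 and 17779635 counts. Mitochondrial genes took 17.9% to 20.4% of them in Ctrl, 19.8% to 27.3% in Case and 19.7% to 27.6% in Dapa. Kidney markers were present in every mouse: the proximal tubule transporter Slc34a1 was at 839 to 1805 FPKM and Umod, the uromodulin gene of the thick ascending limb, at 317 to 2221 FPKM. Some libraries stood apart. Case 3 had the highest FPKM of all 17 mice for 19 of the 54 members. Among the 21 members tested in any comparison it was highest for 8, against 13.8% of the 14846 genes tested. Its summed FPKM of 11 macrophage markers was 199, against at most 59.5 in the other Case mice, and its sum of 8 neutrophil markers was 20.7, against at most 13.9. Ctrl 3 had a sum of 69.8 FPKM over 6 adipocyte markers (0 to 0.183 in the other Ctrl mice and 0 to 10.4 in the other groups). These values are given again where a member moved with them. In bulk RNA, fewer cells of a type and less RNA per cell cannot be told apart.

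The promoters of 39 members could be read from RefSeq (build GRCm38.p6, the same assembly as mm10, 250 bases before to 50 bases after the start). For shares, the first promoter listed for each gene was counted, here and over all genes. Promoters were searched on both strands for 3 short patterns: GAAA, any 2 bases and GAAA (like an interferon-stimulated response element), GGGA, any 2 bases, T, any base and CC (like a kappaB element), and TTC, any 3 bases and GAA (like a gamma-activated site). The first was in 5.13% of the members' promoters (Cxcl10 and Cxcl14) and in 3.49% of all 27025 promoters. The second was in 15.4% of members (Cxcl1, Cxcl2, Cxcl3, Cxcl10, Ccl1 and Ccr3) and in 3.92% of all promoters. Another promoter listed for Ccr6, outside this count, also held it. The third was in 10.3% of members (Ccl17, Ccr1l1, Ccr6 and Cxcl14) and in 8.47% of all promoters. The 250 bases before the start are printed for Cxcl10, Cxcl1 and Ccl28, the members whose Case and Ctrl values did not overlap, and for Cxcl9, which lies beside Cxcl10 and did not pass the test with all mice. Capitals mark matches of the first and second patterns.
Cxcl10, chr5:92348890-92349139, strand -: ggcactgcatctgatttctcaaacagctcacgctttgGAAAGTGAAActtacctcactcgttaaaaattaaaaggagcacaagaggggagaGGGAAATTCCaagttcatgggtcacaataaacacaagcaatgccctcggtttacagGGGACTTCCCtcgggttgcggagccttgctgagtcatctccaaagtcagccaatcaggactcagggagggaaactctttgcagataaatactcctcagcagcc
Cxcl9, chr5:92328080-92328329, strand -: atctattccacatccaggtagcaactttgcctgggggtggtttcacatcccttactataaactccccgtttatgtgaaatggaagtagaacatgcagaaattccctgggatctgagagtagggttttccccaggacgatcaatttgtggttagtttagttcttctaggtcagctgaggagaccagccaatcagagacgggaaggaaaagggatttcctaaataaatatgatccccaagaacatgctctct
Cxcl1, chr5:90890995-90891244, strand +: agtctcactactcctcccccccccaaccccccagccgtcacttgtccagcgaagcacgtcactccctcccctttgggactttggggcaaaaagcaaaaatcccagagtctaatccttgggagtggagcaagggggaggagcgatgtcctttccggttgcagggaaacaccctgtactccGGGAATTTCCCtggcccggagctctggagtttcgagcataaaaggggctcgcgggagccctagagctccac
Ccl28, chr13:119623569-119623818, strand +: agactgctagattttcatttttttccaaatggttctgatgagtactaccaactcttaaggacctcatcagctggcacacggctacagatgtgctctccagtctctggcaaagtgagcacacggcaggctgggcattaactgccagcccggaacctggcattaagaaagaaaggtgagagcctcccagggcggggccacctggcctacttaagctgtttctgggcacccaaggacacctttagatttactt
Cxcl10 held 1 response element-like match, starting at position -213 from the start, and 2 kappaB-like matches at positions -159 and -103. Cxcl1 held 1 kappaB-like stretch, read on one strand from position -71 and on the other from -70. No match was found in the Cxcl9 and Ccl28 windows, which says only that these letters are not in them.

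Most members were barely detected. The filter on low counts (filterByExpr of edgeR) left 20 members for testing in Case versus Ctrl, 19 in Dapa versus Case and 19 in Dapa versus Ctrl. Of the 54, 21 were tested in at least 1 comparison (14 ligands and 7 receptors) and 33 in none (20 ligands and 13 receptors). Only 10 members had a mean of at least 1 FPKM (fragments per kilobase, scaled to the library total). By mean FPKM over the 17 mice the order of the ligands was Cx3cl1 (10.5), Cxcl12 (8.64), Cxcl16 (5.56), Cxcl14 (4.09), Ccl28 (2.24) and Cxcl10 (1.65). This order pools groups that differ: in Ctrl alone the mean of Ccl28 (5.65) was above those of Cxcl16 (4.36) and Cxcl14 (3.12), against 1.09 in Case and 0.551 in Dapa. Among receptors it was Ackr3 (8.36), Cxcr4 (1.36) and Cx3cr1 (0.888). Neighbours in the order of the ligands changed places between mice: Cx3cl1 was above Cxcl12 in 13 of 17 mice, and Ccl28 above Cxcl10 in 7 of 17. Ackr3 was above Cxcr4 in 17 of 17 mice. The gene length behind the deposited FPKM was 2.30 times the longest annotated transcript for Cxcl12 and 7.11 times for Ccl27a, and with the longest transcript Cxcl12 came first (19.9) and Cx3cl1 second (14.3), Ccl27a moved from place 11 to 4 and Ccl28 from 5 to 8.

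In Case versus Ctrl, 3 chemokines rose and 1 fell. Cxcl10, an attractant of T and NK cells, was 3.39-fold higher, the neutrophil attractant Cxcl1 was 7.17-fold higher, and Ccl6, a macrophage-derived ligand of CCR1, was 2.15-fold higher. Ccl28, an epithelial ligand of CCR10 and CCR3, was 5.60-fold lower. These 4 were 20% of the 20 members tested (edgeR quasi-likelihood test, q under 0.05 after Benjamini-Hochberg adjustment over all genes), against 13.0% of the 14582 genes tested. By direction, the background was 6.09% higher and 6.91% lower. No receptor was among them. With the study's added limit of a fold of mean FPKM above 2, the same 4 members passed, against 3.79% of all genes. At an unadjusted p under 0.05 there were 9 of 20 members, against 28.7% of all genes. The groups did not overlap in FPKM for Cxcl1 and Cxcl10, which were higher in Case (4.97% of all genes), and for Ccl28, which was lower (3.46%). The median log2 fold change was 0.15 over the tested members and 0.03 over all genes, and some members passed the filter through 1 group alone, Cxcl1 among them.

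In Dapa versus Case, no member passed the test. The count was 0 of 19 by edgeR, where 0.0% of 14573 genes passed, and also 0 of 19 by DESeq2 and by the exact test of edgeR, which called 1.39% and 0.885% of all genes. At an unadjusted p under 0.05 there were 4 members of 19, Cxcr4, Cx3cl1 and Ccl5 among them, against 12.9% of all genes. The median log2 fold change was -0.23 over the tested members and -0.01 over all genes.

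In Dapa versus Ctrl, Cxcl10, Cxcl13 and Ccl5 were higher, and Ccl28, Cx3cl1 and Ackr3 were lower. These 6 were 31.6% of the 19 members tested, against 29.1% of 14647 genes (14.2% higher and 14.9% lower). The share of members was close to that of all genes, and it includes Cxcl13, which passed the filter on low counts through the Dapa mice alone and so had to differ. With the limit on fold 4 members passed (Ccl28, Ccl5, Cxcl10 and Cxcl13), against 7.18% of all genes, and at an unadjusted p under 0.05 there were 7 of 19, against 41.1%. The groups did not overlap for Cxcl10, higher in Dapa (9.79% of all genes), and Ccl28, lower in Dapa (4.74%). The median log2 fold change was 0.04 over members and 0.02 over all genes. Case versus Ctrl and Dapa versus Ctrl share the Ctrl mice, so the values of both are given side by side below and were not compared with each other.

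**Figure D1:**
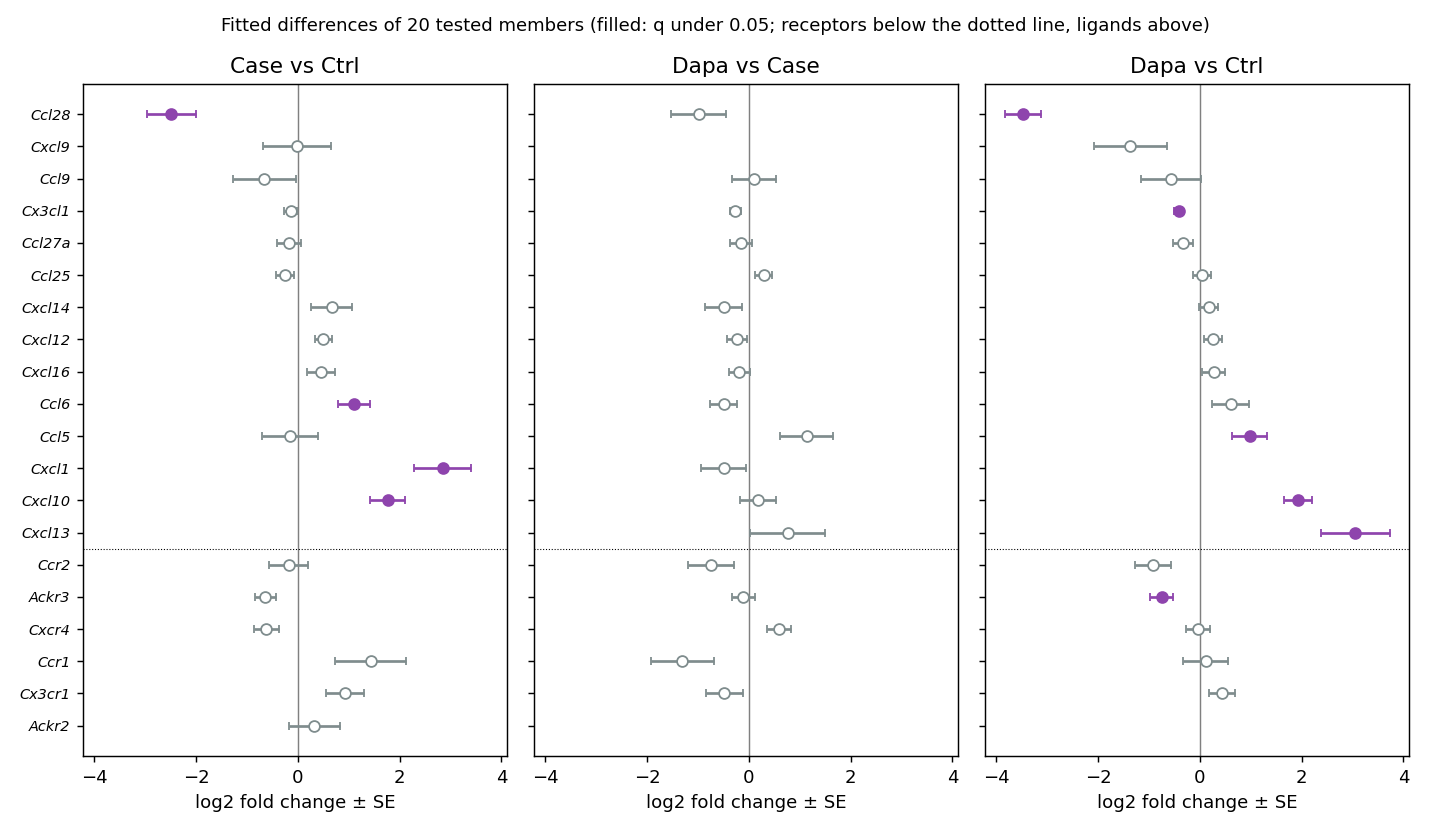
Fitted log2 fold change with its standard error (x axis) for 20 of the 21 members tested in any comparison (y axis), in the 3 comparisons. Filled points have q under 0.05: 4 in Case versus Ctrl, 0 in Dapa versus Case and 6 in Dapa versus Ctrl.

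Among the CXCR3 ligands, Cxcl10 (ENSMUSG00000034855, chr5:92346638-92348889, minus strand) was higher in db/db kidneys with and without dapagliflozin. Its FPKM in the 5 Ctrl mice was 0.491, 0.550, 0.513, 0.559 and 0.613. In Case it ran from 0.850 to 4.40 with a median of 1.58, and in Dapa from 0.931 to 3.13 with a median of 2.51. Every db/db mouse of either group was above every Ctrl mouse. Over all genes tested, groups did not overlap in one direction or the other for 8.43% in Case versus Ctrl and for 14.5% in Dapa versus Ctrl. The log2 fold change was 1.76 (SE 0.34, q = 0.00615) in Case versus Ctrl, 1.94 (SE 0.28, q = 0.000583) in Dapa versus Ctrl and 0.18 (SE 0.35, q = 0.857) in Dapa versus Case. The Case 3 value of 4.40 was the highest of all mice, and without that mouse Case versus Ctrl was 1.38 (SE 0.22, q = 0.00272). Cxcl10 overlaps Art3 on the other strand, and the strand setting of the counting was not given in the sources used here. Art3 was at 0.226 to 0.437 FPKM and did not pass the test in Case versus Ctrl (q = 0.540). The log2 fold change of Art3 in Dapa versus Ctrl was 0.27 (SE 0.17, q = 0.237), with every Dapa mouse (from 0.3016 FPKM) just above every Ctrl mouse (to 0.3015 FPKM), and its part in the Cxcl10 counts was not tested.

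Cxcl9, the neighbour of Cxcl10, passed in no comparison with all mice. It was at 0.359, 0.337, 0.804, 0.290 and 0.292 FPKM in Ctrl. In Case mice 1 to 6 it was at 0.108, 0.163, 0.978, 0.579, 0.817 and 0.0173, so that mice 3, 4 and 5 held the 3 highest Case values of Cxcl9 as of Cxcl10. Among Dapa mice it was 0 to 0.516 with a median of 0.116. The groups overlapped, and the log2 fold change of Cxcl9 was -0.02 (SE 0.66, q = 0.991) in Case versus Ctrl and -1.36 (SE 0.71, q = 0.166) in Dapa versus Ctrl. Without Dapa 7, the Dapa mouse with the highest Cxcl9, the latter was past the threshold (q = 0.0380). Cxcl9 passed the filter on low counts in Dapa versus Ctrl through the Ctrl mice. They had 15 to 44 counts, against 0 to 25 in Dapa with a median of 6. The filter thus favoured a lower value in Dapa, and no difference is read from this fit. In Dapa versus Case, Cxcl9 did not pass the filter. Whether the changes of the 2 genes differ was not tested. Cxcl11 was a low-count gene (1 to 25 counts per mouse, the highest in Case 3). Their receptor Cxcr3, carried by activated T cells and NK cells, was also a low-count gene, with 0 to 6 counts in Ctrl, 0 to 8 in Case and 3 to 12 in Dapa.

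A list of 16 genes of the interferon-gamma response holds Ifng and genes such as Irf1, Psmb8 and Tap1. In Case versus Ctrl, 13 of its 15 tested genes were higher, with a median log2 fold change of 2.82 against 0.03 over all genes, of which 6.09% passed as higher. In Dapa versus Case the list's median was -2.64, and 0 of 15 genes passed by edgeR, while 15 of 15 had an unadjusted p under 0.05 (12.9% of all genes) and 14 of 15 were lower by DESeq2 and by the exact test (which called 1.39% and 0.885% of all genes in either direction). Cxcl10 passed in that comparison by none of the 3 tests. In Dapa versus Ctrl 1 of 15 passed (Tgtp1, lower, log2 -2.04, q = 0.00334), against 29.1% of all genes, and the list's median was 0.01. The summed FPKM of the list was 24.9 to 32.3 in Ctrl, 22.0 to 765 in Case and 22.8 to 40.4 in Dapa. Case was uneven: mice 1, 3 and 5 were at 377, 765 and 451, mouse 2 at 66.8, and mice 4 and 6 at 30.9 and 22.0. Cxcl10 in Case mice 1 to 6 was at 1.52, 0.850, 4.40, 1.64, 2.10 and 1.37 FPKM, so that the mice with the 2 highest list sums (3 and 5) also had the 2 highest values of Cxcl10, while the lowest value was not in the mice with the lowest sums. The Dapa mice had 0.931 to 3.13 FPKM of Cxcl10. The part of the interferon-gamma response in the Cxcl10 values was not tested. Ifng itself was listed at 0 counts in all Ctrl and Dapa mice and at 0 to 6 counts in Case.

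**Figure D2:**
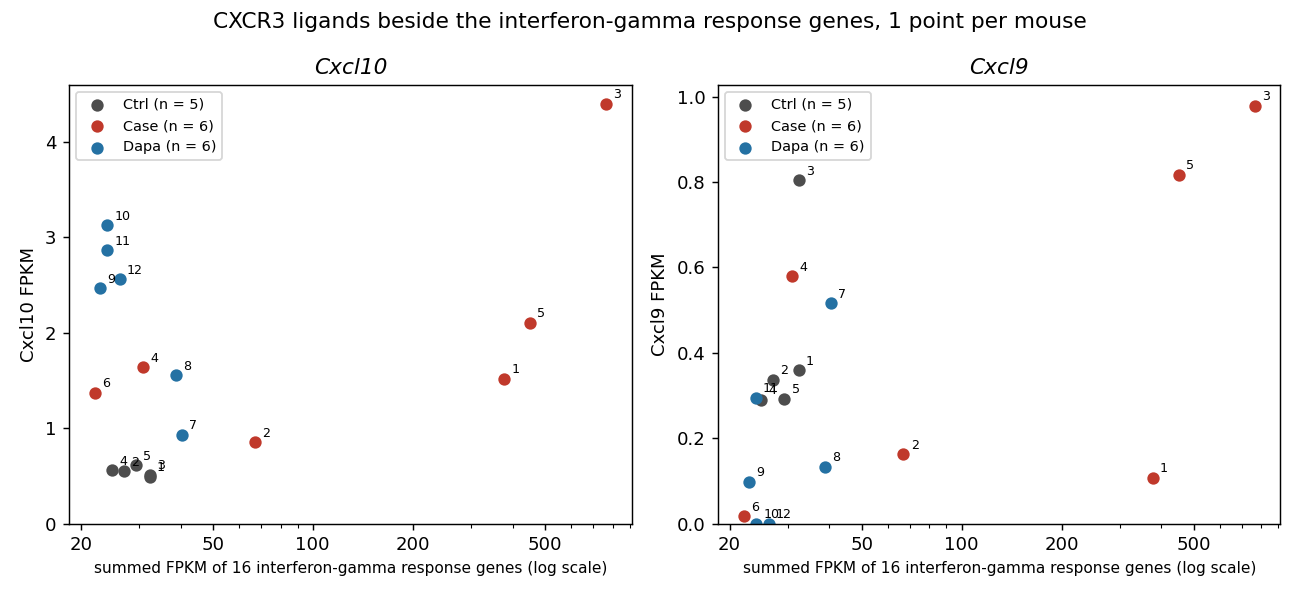
FPKM of Cxcl10 (left) and Cxcl9 (right) against the summed FPKM of 16 interferon-gamma response genes (log scale), 1 point per mouse with its number. The Dapa mice lie with the Ctrl mice on the x axis (22.8 to 40.4) and above them for Cxcl10 (0.931 to 3.13 against 0.491 to 0.613).

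Among the ligands of CXCR2, Cxcl1 (ENSMUSG00000029380, chr5:90891241-90893115, plus strand) was nearly absent from Ctrl kidneys. It had 7, 4, 3, 6 and 0 counts in Ctrl and 14 to 52 in Case, with a median of 26. Values of the Dapa group were 8 to 38, around a median of 18.5. The lowest Case mouse had more reads than the highest Ctrl mouse, and so had the lowest Dapa mouse. Case versus Ctrl gave a log2 fold change of 2.84 (SE 0.55, q = 0.00688), and Cxcl1 passed the filter there through the Case mice alone, so that it had to differ. It did not pass the filter in Dapa versus Ctrl, where the fit without a filter gave 2.35 (SE 0.62, q = 0.0175). Dapa versus Case was -0.49 (SE 0.44, q = 0.657). Markers of neutrophils, the cells that CXCL1 attracts, overlapped between groups: their summed FPKM was 0.147 to 2.63 in Ctrl, 0.778 to 20.7 in Case and 0.720 to 9.12 in Dapa. The Case mice with the most Cxcl1, mouse 1 (52 counts) and mouse 3 (40 counts), also had the highest sums of these markers (13.9 and 20.7). S100a9 did not pass the test in Case versus Ctrl (log2 2.62, q = 0.0977), and the neutrophil-defining Ly6g was at 0 counts in every Ctrl and Dapa mouse and at 0 to 4 in Case. Their part in the Cxcl1 difference was not tested.

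The other CXCR2 ligands had most of their reads in 1 mouse. Cxcl2 had 55 of its 74 counts in Case 3 and Cxcl5 had 36 of its 51 there, while Cxcl3 was seen only in Case 2 (2 counts) and Case 3 (5 counts). The receptor Cxcr2 had 33 counts in Case 3, 12 in Case 1, 13 in Dapa 8 and at most 9 in any other mouse. Between Cxcl2 and Cxcl3, 5.84% and 4.24% of the 50-base stretches of their transcripts are shared, so reads of one may count for the other.

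Of the ligands of CCR1, Ccl6 (ENSMUSG00000018927, chr11:83587882-83593087) was higher in Case. Its FPKM was 0.968, 0.479, 0.398, 1.42 and 0.947 in Ctrl and 1.38 to 2.50 in Case, with a median of 1.85. The Dapa mice ran from 0.663 to 2.14, with a median of 1.45. Of 6 Case mice, 5 were above all Ctrl mice. The fitted log2 difference was 1.11 (SE 0.32, q = 0.0378) in Case versus Ctrl, 0.60 (SE 0.35, q = 0.218) in Dapa versus Ctrl and -0.50 (SE 0.27, q = 0.439) in Dapa versus Case. The first of these lost the threshold when any 1 of 7 mice was left out (Ctrl 1, 2, 3 or 5, or Case 3, 4 or 6), with q up to 0.0903. The neighbouring Ccl9 was at 0 to 0.462 FPKM in Ctrl, 0.0654 to 0.361 in Case and 0.114 to 0.386 in Dapa, and passed no test, with a log2 fold change in Case versus Ctrl of -0.66 (SE 0.63, q = 0.531).

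Ccl5, made by T cells, NK cells and inflamed epithelium, was higher in Dapa than in Ctrl. Its FPKM was 0.616, 0.406, 0.943, 0.789 and 0.846 in Ctrl and 0.0586 to 1.89 in Case, with a median of 0.570. Among Dapa mice it was 0.589 to 2.33 with a median of 1.60. Dapa 10 was the only Dapa mouse within the range of Ctrl, and Case 3 the only Case mouse above it. On the log2 scale the fold change was 0.98 (SE 0.35, q = 0.0499) in Dapa versus Ctrl, 1.14 (SE 0.52, q = 0.378) in Dapa versus Case and -0.15 (SE 0.55, q = 0.889) in Case versus Ctrl. The call in Dapa versus Ctrl sat on the threshold: it was lost when any 1 mouse other than Dapa 10 was left out, with q up to 0.112. T and NK cell markers summed to 1.92 to 3.18 FPKM in Ctrl, 0.696 to 4.49 in Case and 1.95 to 4.95 in Dapa. The sum was highest in Dapa 8, which also had the highest Ccl5. Of their 3 tested genes, 2 had positive differences in Dapa versus Ctrl. Lck alone passed (log2 0.96, q = 0.0415), where 14.2% of all genes passed as higher. The median of Lck was 0.139 FPKM in Ctrl, 0.304 in Case and 0.296 in Dapa, so its level was not particular to Dapa. The part of these cells was not tested. Ccl3 (0 to 12 counts) and Ccl4 (0 to 7 counts) were low-count genes.

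The receptors Ccr1 and Ccr2, carried by monocytes and macrophages, were highest in Case 3. Ccr2 was at 0.443, 0.360, 0.250, 0.409 and 0.434 FPKM in Ctrl and 0.152 to 0.878 in Case, with a median of 0.257. The Dapa mice ran from 0.121 to 0.445, with a median of 0.134. In Dapa versus Ctrl 4 of 6 mice were below all Ctrl mice, with a log2 fold change of -0.93 (SE 0.35, q = 0.0652). It passed in 5 of 20 alternative fits: by DESeq2 (q = 0.0335), by the exact test (q = 0.0397), with a term for 7 libraries (q = 0.0205) and without Dapa 7 or Dapa 8 (lowest q 0.00737). In the other fits q was up to 0.137. The log2 fold change of Ccr2 was -0.18 (SE 0.38, q = 0.796) in Case versus Ctrl and -0.74 (SE 0.45, q = 0.492) in Dapa versus Case. Ccr1 was at 0.105 to 0.348 FPKM in Ctrl, 0.134 to 1.73 in Case and 0.135 to 0.461 in Dapa, and passed no test, with a log2 fold change in Case versus Ctrl of 1.43 (SE 0.69, q = 0.190), or 0.80 (SE 0.62, q = 0.429) without Case 3. The macrophage markers summed to 30.3 to 50.7 FPKM in Ctrl, 30.0 to 199 in Case and 30.8 to 67.4 in Dapa, and 0 of their 10 tested genes passed in Case versus Ctrl by edgeR, DESeq2 or the exact test (0 genes with an unadjusted p under 0.05 by edgeR). In Dapa versus Ctrl 1 of the 10 marker genes passed by each of these tests, as higher. By edgeR 14.2% of all genes passed as higher there. Their part in the receptor values was not tested.

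Ligands of CCR2 were all low-count genes. Ccl2, the main attractant of monocytes, had 0 to 8 counts in Ctrl, 0 to 16 in Case and 1 to 13 in Dapa. Ccl12 had 0 counts in each of the 5 Ctrl mice, 2, 10, 32, 5, 10 and 0 in Case mice 1 to 6, and 0, 1, 0, 0, 0 and 2 in Dapa mice 7 to 12. With no filter on low counts Ccl12 passed in Case versus Ctrl (q = 0.0318) and not in Dapa versus Case (q = 0.271). Its Case counts rest on few reads, of which Case 3 held the most. Ccl7 had 0 to 5 counts per mouse.

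**Figure D3:**
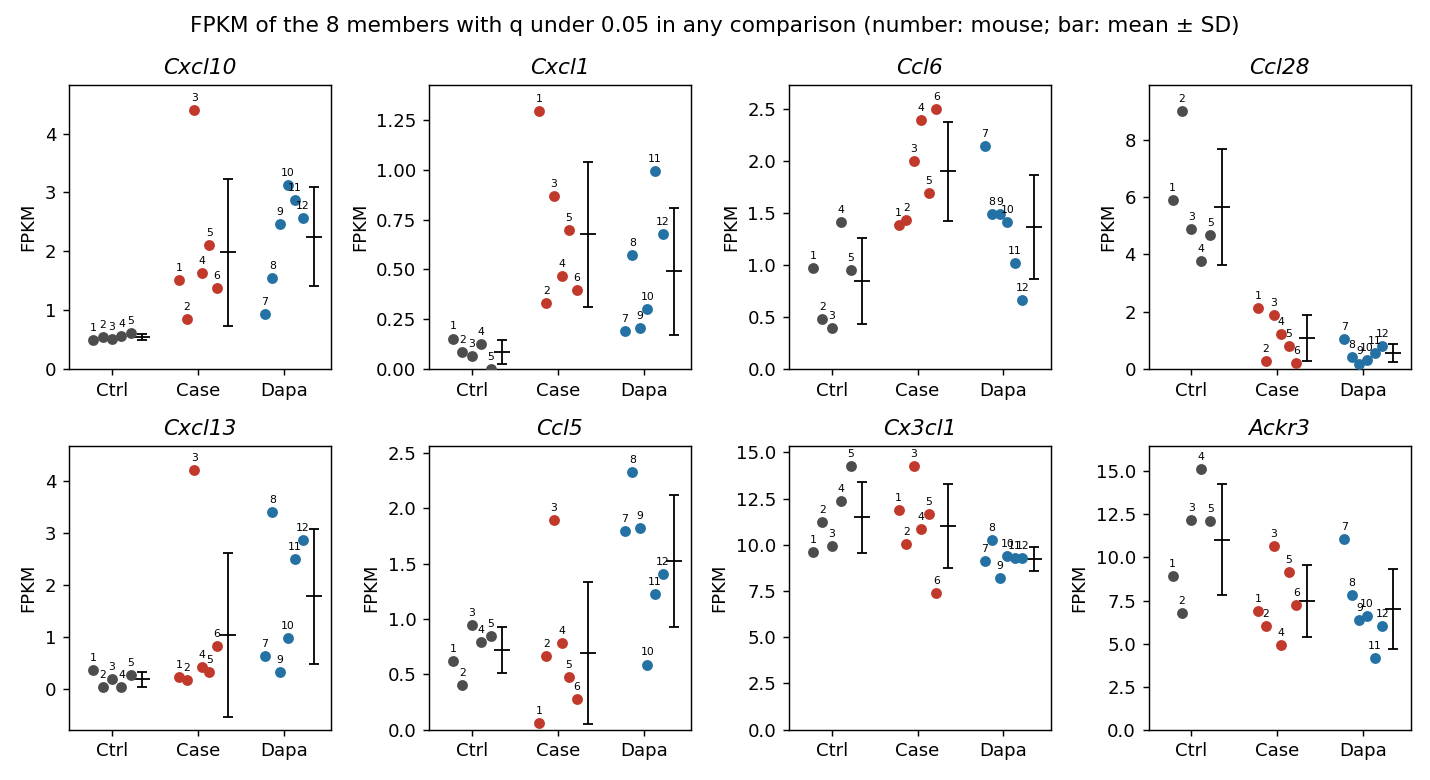
FPKM in each mouse (points, with the mouse number) for the 8 members with q under 0.05 in any comparison, with the mean and SD of each group beside them. Cxcl10 and Ccl28 are the members for which neither db/db group overlaps Ctrl and that passed the test in both comparisons with Ctrl.

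Among the epithelial chemokines, Ccl28 (ENSMUSG00000074715, chr13:119623819-119654354, plus strand) fell in both db/db groups against Ctrl. It was at 5.90, 9.01, 4.90, 3.77 and 4.67 FPKM in Ctrl and 0.211 to 2.14 in Case, with a median of 1.01. Among Dapa mice it was 0.189 to 1.04 with a median of 0.476. The groups did not overlap: the highest db/db mouse, at 2.14, was below the lowest Ctrl mouse, at 3.77. The fitted log2 difference was -2.48 (SE 0.48, q = 0.00642) in Case versus Ctrl, -3.48 (SE 0.36, q = 0.000139) in Dapa versus Ctrl and -0.99 (SE 0.54, q = 0.445) in Dapa versus Case. Its receptor Ccr10 had at most 2 counts in any mouse. The tubule markers did not move one way: in Case versus Ctrl the endocytic receptor Lrp2 was lower (log2 -0.98, q = 0.00407), and the distal and collecting duct genes Calb1 (1.55, q = 0.00347) and Aqp2 (0.78, q = 0.0395) were higher. Their part in the Ccl28 difference was not tested.

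The other epithelial ligands passed no test. Cxcl14 was at 2.43, 3.08, 2.61, 3.12 and 4.39 FPKM in Ctrl and 1.62 to 10.3 in Case, with a median of 4.34. Values of the Dapa group were 2.60 to 4.50, around a median of 4.09. The Case mice were spread both above and below the other groups, and the log2 fold change in Case versus Ctrl was 0.67 (SE 0.40, q = 0.293). Ccl25, which attracts cells to the gut through CCR9, was at 0.616 to 1.20 FPKM over all mice, and Ccl27a, an epidermal ligand of CCR10, at 0.405 to 1.01. Of the Ccl27a transcript, 45.0% of the 50-base stretches also occur in Gm20878 or Gm13306, so its level is uncertain. Ccl25 and Ccl27a overlap Elavl1 and Il11ra1 on the other strand. Elavl1 was at 5.16 to 8.10 FPKM and lower in Case versus Ctrl (log2 -0.35, SE 0.09, q = 0.0210), where Ccl25 was at -0.25 (SE 0.18, q = 0.382). Il11ra1 was at 6.03 to 7.96 FPKM and passed in no comparison. The part of these neighbours in the counts of Ccl25 and Ccl27a was not tested. Cxcl15 (0 to 4 counts) and Cxcl17 (0 to 3 counts) were low-count genes, as were the receptor Ccr9 (0 to 7 counts) and the scaffold copy of Ccl27a (1 count in 1 mouse).

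For CXCL12, which holds progenitors and leukocytes in their niches, and its receptors, no member passed in Case versus Ctrl by the quasi-likelihood test, where the mean of the ligand lay above Ctrl and those of both receptors below. Cxcl12 (chr6:117168535-117181367) was at 5.92, 5.34, 6.56, 8.77 and 7.36 FPKM in Ctrl and 7.17 to 13.4 in Case, with a median of 10.4. The Dapa mice ran from 6.35 to 13.8, with a median of 8.29. Of 6 Case mice, 4 were above all Ctrl mice, and the log2 fold change was 0.50 (SE 0.17, q = 0.0679). Cxcl12 passed there by DESeq2 (q = 0.0328) and by the exact test (q = 0.0436), and so did Ackr3, which was lower (q = 0.0220 and q = 0.0296). Cxcr4 was at 1.91, 1.73, 0.902, 1.57 and 1.38 FPKM in Ctrl and 0.675 to 1.31 in Case, with a median of 1.07. Among Dapa mice it was 1.04 to 2.13 with a median of 1.63. Its log2 fold change was -0.62 (SE 0.24, q = 0.112) in Case versus Ctrl and 0.59 (SE 0.23, q = 0.308) in Dapa versus Case, where 5 of 6 Dapa mice were above all Case mice. Cxcl12 in Dapa mouse 8 was at 13.8 FPKM, against at most 8.65 in the other Dapa mice.

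Ackr3 (chr1:90203980-90216751), the atypical receptor that takes up CXCL12, was the most abundant receptor gene. It was at 8.95, 6.78, 12.2, 15.2 and 12.1 FPKM in Ctrl and 4.93 to 10.6 in Case, with a median of 7.05. Values of the Dapa group were 4.19 to 11.1, around a median of 6.48. The groups overlapped, with Ctrl 1 and Ctrl 2 inside the range of Case. On the log2 scale the fold change was -0.64 (SE 0.21, q = 0.0604) in Case versus Ctrl, -0.75 (SE 0.23, q = 0.0275) in Dapa versus Ctrl and -0.10 (SE 0.22, q = 0.868) in Dapa versus Case. In Case versus Ctrl it passed without Ctrl 2, Case 3 or Case 5 (lowest q 0.0333), and Cxcl12 passed without Ctrl 4 or Case 3 (lowest q 0.0246). Ackr3 lost the threshold in Dapa versus Ctrl without Ctrl 3, 4 or 5 or Dapa 10 or 12 (highest q 0.0653). The other atypical receptors were low: Ackr2, a scavenger of inflammatory CC chemokines, had 1 to 21 counts per mouse, and Ackr4 had 0 to 8.

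**Figure D4:**
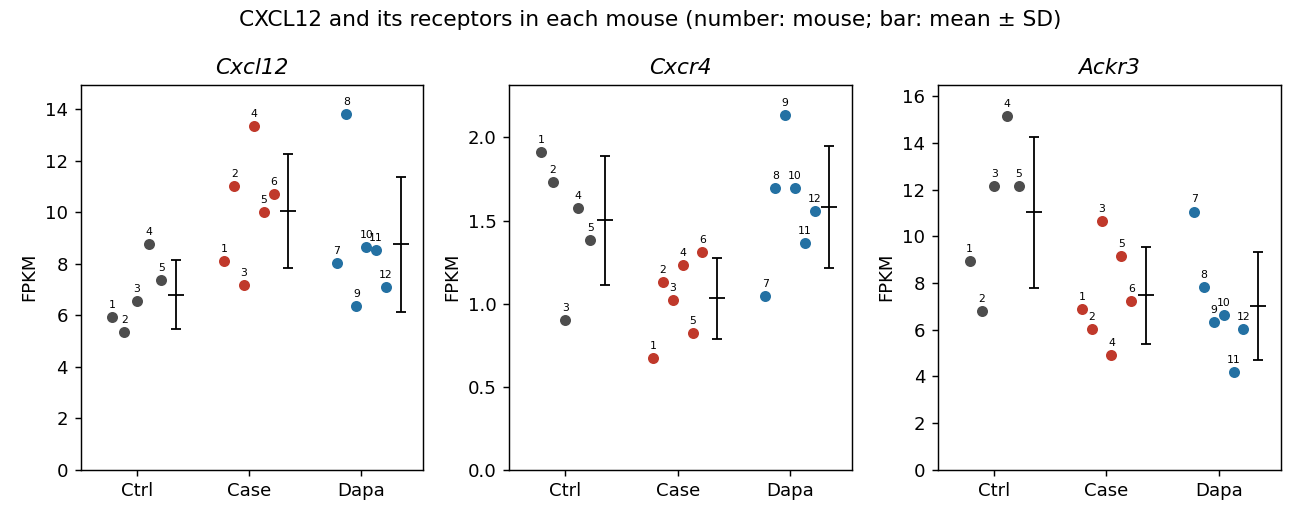
FPKM of Cxcl12, Cxcr4 and Ackr3 in each mouse (points, with the mouse number) by group, with mean and SD. The Case means (10.1, 1.03 and 7.47) lie above Ctrl for Cxcl12 (6.79) and below it for Cxcr4 (1.50) and Ackr3 (11.0).

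Of the membrane-bound chemokines, Cx3cl1 (chr8:94772009-94782423) was lower in Dapa than in Ctrl. It was at 9.63, 11.2, 9.92, 12.3 and 14.3 FPKM in Ctrl and 7.41 to 14.3 in Case, with a median of 11.3. The Dapa mice ran from 8.19 to 10.2, with a median of 9.28. Of 6 Dapa mice, 5 were below the lowest Ctrl mouse. The log2 fold change was -0.42 (SE 0.09, q = 0.00652) in Dapa versus Ctrl, -0.27 (SE 0.11, q = 0.333) in Dapa versus Case and -0.14 (SE 0.13, q = 0.513) in Case versus Ctrl. The first is a 1.33-fold difference, below the 2-fold limit of the study's definition of a differentially expressed gene. It passed in 19 of 20 alternative fits and was lost with limma on log2(FPKM + 0.1) (q = 0.0616). Its receptor Cx3cr1, a marker of resident kidney macrophages, was at 0.483, 0.558, 0.398, 0.825 and 0.654 FPKM in Ctrl and 0.541 to 2.94 in Case, with a median of 0.937. Among Dapa mice it was 0.492 to 1.26 with a median of 0.851. Its log2 fold change of 0.92 (SE 0.37, q = 0.122) in Case versus Ctrl was 0.44 (q = 0.232) without Case 3. Cxcl16, the other membrane-bound ligand, was at 5.86, 3.27, 6.02, 3.98 and 2.64 FPKM in Ctrl, 3.69 to 10.4 in Case with a median of 5.79, and 4.54 to 7.92 in Dapa with a median of 5.55. The groups overlapped, and its log2 fold change in Case versus Ctrl was 0.46 (SE 0.27, q = 0.291). Cxcl16 overlaps Zmynd15 on the other strand, so its values are uncertain in the same way as those of Cxcl10. Its receptor Cxcr6 had 2 to 11 counts in Ctrl, 0 to 27 in Case and 4 to 24 in Dapa.

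The lymphoid chemokine Cxcl13 (chr5:95956951-95961068), which draws B cells into follicles through CXCR5, was higher in Dapa than in Ctrl. It had 7, 1, 4, 1 and 5 counts in Ctrl and 3 to 79 in Case, with a median of 7. Values of the Dapa group were 6 to 63, around a median of 27.5. The Dapa mice were split, with 63, 39 and 43 counts in mice 8, 11 and 12 and 6 to 16 in the others, and in Case only mouse 3 was above 17. The log2 fold change in Dapa versus Ctrl was 3.05 (SE 0.68, q = 0.00584), and Cxcl13 passed the filter there through the Dapa mice alone, so that it had to differ. Leaving out any Dapa mouse but Dapa 9 took it below the filter, while the remaining 6 fits gave q of 0.00294 to 0.0172. In Case versus Ctrl it did not pass the filter, and the fit without a filter gave 2.27 (q = 0.130). In Dapa versus Case the log2 fold change was 0.77 (SE 0.74, q = 0.687), or 2.04 (q = 0.209) without Case 3. B and plasma cell markers summed to 1.55 to 3.67 FPKM in Ctrl and 1.69 to 7.24 in Dapa, highest in Dapa 8, which also had the most Cxcl13 of the Dapa mice. Of their 3 tested genes 0 passed in Dapa versus Ctrl by edgeR (0 at an unadjusted p under 0.05). Markers of lymphatic vessels and lymph node summed to 3.45 to 5.75 FPKM in Ctrl, 4.35 to 10.3 in Case (highest in Case 3) and 3.75 to 9.67 in Dapa. Of their 4 tested genes 1 was higher in Dapa versus Ctrl, where 14.2% of all genes passed as higher. The part of these cells in the Cxcl13 values was not tested. The receptor Cxcr5 had 0 to 8 counts.

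Both genes were tested in Case versus Ctrl for 6 of the 27 ligand and receptor pairs among the members. In none did both pass the quasi-likelihood test in any comparison, while Cxcl12 and Ackr3 both passed in Case versus Ctrl by DESeq2, by the exact test and without Case 3, with differences of opposite sign. Among the pairs were Ccl6 and Ccl9 with Ccr1, Cxcl12 with Cxcr4 and with Ackr3, and Cx3cl1 with Cx3cr1. Both Cx3cl1 and Ackr3 were lower in Dapa versus Ctrl, while Cx3cr1 (log2 0.44, q = 0.208) and Cxcl12 (0.26, q = 0.283) had positive differences.

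Of the 33 members that passed the filter in no comparison, Ccl12 alone passed the test with no filter, in Case versus Ctrl. Of these 33, 22 had at most 10 counts in every mouse and 8 at most 3. Ccl20, Ccr3, Ccr1l1, Ccr10, Ccl1 and Ccr4 had at most 2 counts in any mouse. Ccl24 (0 to 4), Ccl22 (0 to 5), Ccr6 (0 to 5), Ccr7 (0 to 6), Xcl1 (0 to 7), Ccl17 (0 to 9) and Xcr1 (0 to 12) were little higher. Ctrl 3, the mouse with the adipocyte markers, had the highest counts of Ccl11 (0 to 10 over all mice) and Ccl24 (4), both eosinophil attractants, and 12 counts of Ccl8, second to Case 3 (15). It also had the highest Cxcl9 of Ctrl (0.804 FPKM), and the part of adipose tissue in these values was not tested. Over the 33 members together, Case 3 had 312 counts and 25 members detected, against 37 to 88 counts and 9 to 18 members in each other mouse.

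**Figure D5:**
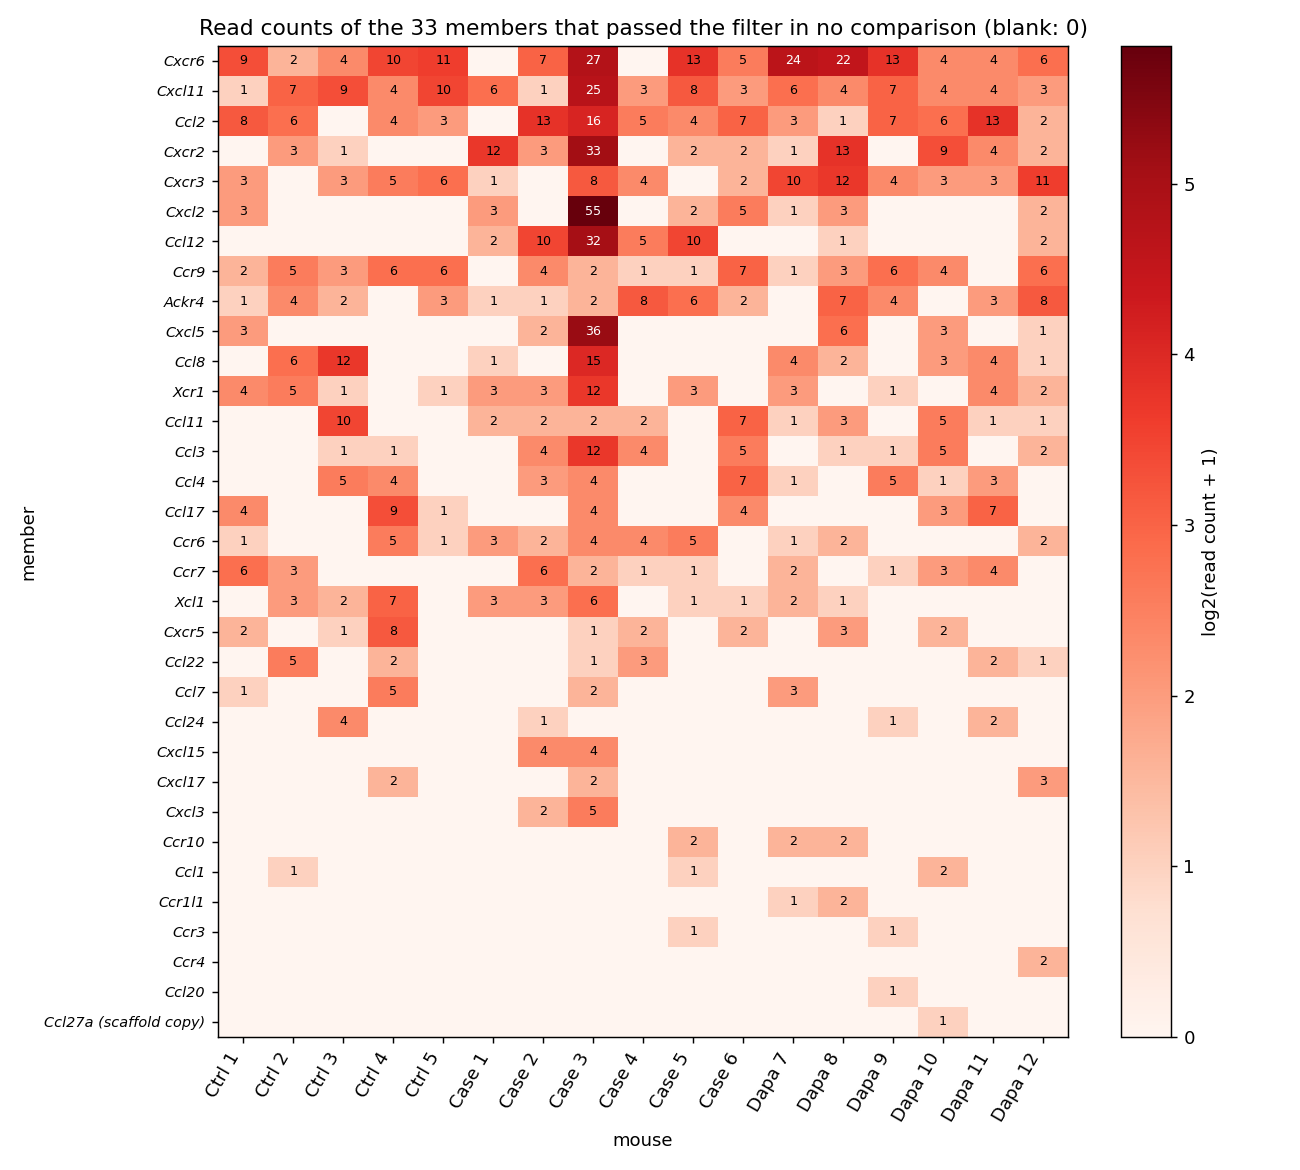
Read counts of the 33 members that passed the filter in no comparison (rows) in each of the 17 mice (columns), coloured on the scale log2(count + 1), with zeros left blank. Case 3 stands out with 55 counts of Cxcl2, 36 of Cxcl5, 33 of Cxcr2 and 32 of Ccl12.

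By position, most members lie in 4 stretches of the genome. The stretch on chromosome 5 (90759360 to 92365485) holds 8 CXC ligands, of which Cxcl1, Cxcl9 and Cxcl10 were tested: Cxcl1 and Cxcl10 rose in Case and Cxcl9 did not pass. On chromosome 11 (82035571 to 83664683) 3 of 11 CC ligands were tested, of which Ccl6 rose in Case and Ccl5 in Dapa. On chromosome 9 (119901616 to 124147699) 5 of 10 receptors were tested, and none passed the quasi-likelihood test with all mice in any comparison. Ccr2, of this stretch, passed in Dapa versus Ctrl only in the 5 of 20 alternative fits given above. On chromosome 8 (94745590 to 94812035) only Cx3cl1 of 3 ligands was tested.

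Genes around the chemokine system that are not members were counted from 2 lists. Of 20 chemokine-like and chemotactic genes, 15 were tested, and in Case versus Ctrl 2 were higher (Gpr182, an endothelial scavenger of chemokines, log2 1.47, q = 0.0128, and the cytokine Mif, 0.51, q = 0.0224) and 1 lower (Cmtm6, -0.75, q = 0.00790), against 13.0% of all genes called. The list's median was 0.27, against 0.03 over all genes. The same 3 genes passed in Dapa versus Ctrl (1.08, 0.38 and -0.91), where 29.1% of all genes passed. None passed in Dapa versus Case by edgeR, DESeq2 or the exact test, with 2 at an unadjusted p under 0.05 by edgeR (12.9% of all genes). Of 36 genes of chemokine receptor signalling, 31 were tested. In Case versus Ctrl 0 passed by edgeR (13.0% of all genes), with 6 at an unadjusted p under 0.05 (28.7% of all genes). By DESeq2 4 passed (3 higher and 1 lower, 18.4% of all genes) and by the exact test 3 (15.3%). In Dapa versus Ctrl 5 were higher (Gnb2, Gng2, Rgs2, Tiam1 and Jak3, with log2 fold changes of 0.34 to 1.07) and 2 lower (Gnai3, -0.22, and Ptk2b, -0.56), so that 7 of 31 passed, against 29.1% of all genes. The list's median was 0.15 in Case versus Ctrl and -0.03 in Dapa versus Ctrl. In Dapa versus Case 0 passed by edgeR, DESeq2 or the exact test, with 1 at an unadjusted p under 0.05 by edgeR (12.9% of all genes).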

How the data were processed

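RNA of whole kidneys from 17 mice was sequenced by the authors, with 1 strand-specific library per mouse made from oligo(dT)-enriched RNA. Per the labels and the paper's methods, reads were aligned to mm10 with HISAT2 and the deposited read counts were made with Stringtie. The FPKM values are also the authors' own. Their methods name TMM scaling, yet for values of at least 100 counts the deposited FPKM could be rebuilt from count, gene length and library total with a deviation of at most 0.00241%. The table held 22561 genes. Of these, 3 (Sirt1, Tgfb1 and Bmp4) had entries over 2 lines whose FPKM and counts disagreed in 7 libraries (Ctrl 1, 3 and 4, Case 1 and Dapa 10, 11 and 12) and were left out.

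Groups came from the sample labels. The members and lists were chosen with earlier results of these data known, so their counts are a description. Counts were tested with edgeR 4.0.16 in R 4.3.3, using the quasi-likelihood test after TMM scaling and filterByExpr, on the groups of each comparison alone. P-values were adjusted by Benjamini and Hochberg over every gene tested, and a member passed at q under 0.05. Alternatives used DESeq2 1.42.0, the exact test of edgeR, median ratio scaling, limma 3.58.1 on log2(FPKM + 1) and log2(FPKM + 0.1), other filters, all groups in one fit, each mouse left out, a block by mouse number and a term for the 7 libraries. The fits were tested on simulated counts.

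Values by mouse or as ranges are given for members that passed in any comparison, those whose groups did not overlap, the 6 ligands and 4 receptors with the highest mean FPKM, the CXCR3 ligands with Cxcr3, and, as fitted values, pairs with both genes tested; low-count members are given by count ranges. The values of 1 tested member that this rule takes in are not reported here, and counts over the members include it except for the search for values far from the others. Ccl12, Ccr2, Cxcl2, Cxcl5, Cxcr2, Ccl8, Ccl11 and Ccl24 were described further after their values were seen. Markers of dendritic cells, endothelium, lymphatic vessels and podocytes were also counted. By edgeR, 0 of 4, 0 of 6, 1 of 4 (Pdpn, higher) and 2 of 5 (Nphs1 and Podxl, higher) of their tested genes passed in Case versus Ctrl, against 13.0% of all genes. At an unadjusted p under 0.05 there were 2, 1, 1 and 2, against 28.7%. In Dapa versus Ctrl, 2 of 5 dendritic cell genes were lower (14.9% of all genes), with a list median log2 of -1.48. There 0 of 6 endothelial, 1 of 4 lymphatic and 2 of 5 podocyte genes were higher (14.2% of all genes). Promoters are RefSeq sequences, and transcript lengths, overlaps and shared stretches come from GENCODE M21. Figures used Python 3.11.15 and matplotlib 3.10.9.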

Additional observations from a re-analysis of the deposited data

Results flagged for a closer look

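For 20 tested members, each group of 5 or 6 mice was searched for a value far from the others, by its gap over the range of the group. The nominal rate of 1 in 20 assumes independent groups, while the members share mice, so it is no yardstick here. Of the 60 groups (20 members in 3 groups), 5 held such a value. In 3 of them the mouse was Case 3: Cx3cr1 at 2.94 FPKM (0.541 to 1.08 in the other Case mice), Cxcl10 at 4.40 (0.850 to 2.10) and Cxcl13 at 4.21 (0.173 to 0.831). Case 3 also had the highest macrophage and neutrophil marker sums of all mice, and the part of those cells was not tested. Cxcl12 was at 13.8 FPKM in Dapa 8, against 6.35 to 8.65 in the other Dapa mice. Cxcl9 was at 0.804 FPKM in Ctrl 3, the mouse with 69.8 FPKM of adipocyte markers, against 0.290 to 0.359 in the other Ctrl mice.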

How the results depend on the processing

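Of the 10 member values that passed the test, 6 stayed past the threshold in every alternative that could be run, and none of the 196 alternatives of the 10 changed sign. Of these 6, Cxcl10 and Ccl28 in both comparisons with Ctrl make up 4. The others, Cxcl1 in Case versus Ctrl and Cxcl13 in Dapa versus Ctrl, passed the filter through the higher group alone, and Cxcl13 could be fitted in only 6 of the 11 settings that leave out 1 mouse, so their counts are no sign of stability. Of the 48 values that did not pass, 15 of 974 alternatives passed and 23 changed sign. The members that passed in Case versus Ctrl numbered 4 (13.0% of all genes), and 3 to 5 when 1 mouse was left out (6.80% to 14.9%), 6 by DESeq2 (18.4%) and by the exact test (15.3%), 5 with no filter (7.24%), and 3 with a minimum of 10 counts (14.0%) or with the term for the 7 libraries (8.36%), which lost Ccl6. In Dapa versus Case the number was 0 in every alternative, with 202 genes of all called by DESeq2 and 129 by the exact test against 0. In Dapa versus Ctrl it was 6 (29.1%), and 3 to 6 with 1 mouse left out (21.8% to 32.3%), the 3 without Dapa 12 (Ccl28, Cx3cl1 and Cxcl10). Cx3cl1 was lost there with limma on log2(FPKM + 0.1) (q = 0.0616), Ackr3 with both limma fits, and Ccl5 with no filter, with all groups in one fit and with the term for the 7 libraries. Values near 0 changed sign. With 1 mouse left out, log2 fold changes ran from -0.40 to 0.37 for Cxcl9 and from -0.73 to 0.065 for Ccl5 in Case versus Ctrl. In Dapa versus Case they ran from -0.16 to 0.33 for Ccl9 and from -0.28 to 0.016 for Ackr3. In Dapa versus Ctrl they ran from -0.15 to 0.11 for Cxcr4, from -0.041 to 0.13 for Ccl25 and from -0.036 to 0.25 for Ccr1. Ackr3 was at 0.0078 in Dapa versus Case with the term for the 7 libraries, and Cxcr4 at 0.049 and 0.081 in Dapa versus Ctrl with limma. The causes were not tested.

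Ctrl and Case share mouse numbers 1 to 5, and the deviations of same-numbered mice correlated between -0.0675 and -0.0429 over the 5 pairs, so the numbers do not pair the mice. With the replicate block, which drops Case 6, 3 members passed (Ccl28, Cxcl1 and Cxcl10), all genes called fell to 699 from 1895, and Cxcl9 was at 0.032. Low counts limit these data: 33 members passed the filter in no comparison, and with no filter Ccl12 alone of them passed the test.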
